A study of Mus musculus with 18 samples.

Results

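Levels of 10 Th1 and cytotoxic genes were followed in RNA sequencing libraries of mouse CD4 T cells that were stimulated through CD3 and CD28 with or without an antibody to Ox40, a costimulatory receptor of the TNF receptor family. The genes were chosen by name: Tbx21, Eomes, Runx3, Stat4, Il12rb2, Il18r1, Ifng, Gzmb, Prf1 and Ccl5. All 10 were among the 36528 entries of the table, and all 10 were among the 13075 genes that could be tested. Splenic cells were taken from NZB/W F1 females, a lupus-prone hybrid of the NZB and NZW strains, aged 21 to 27 weeks and with 30 to 100 mg/dL of protein in the urine. They were isolated with a CD4 T cell kit and cultured for 48 hours at 250000 cells per well, all in IL-2 at 10 U/mL. Cultures received 25 µg/mL of an anti-Ox40 IgG1 or of an isotype control IgG1 (control Ig). Each antibody was combined with 0 (no beads), 0.1 (low beads) or 1 (high beads) bead per cell, the beads carrying anti-CD3 and anti-CD28, which gave 6 groups of 3 libraries. The labels do not say whether the 3 libraries of a group came from separate mice or cultures, so the p-values measure only the spread between libraries, which may be technical.

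Th1 cells are the CD4 T cells that make interferon gamma. IL-12 acts through a receptor containing Il12rb2 to activate STAT4, and STAT4 together with T-bet, the product of Tbx21, drives Ifng and the IL-18 receptor chain Il18r1. Runx3 and Eomes are transcription factors shared with CD8 T cells and NK cells, in which they act on the killing genes Gzmb (granzyme B, a protease) and Prf1 (perforin, a pore-forming protein). Ccl5 is a chemokine stored and released by effector T cells and NK cells.

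Levels are given as nRPKM, a read number scaled to gene length and library size, and differences as differences of log2(nRPKM + 1), which understate the change of genes with low values. The table carried an estimated 26.4 to 45.6 reads for an nRPKM of 1 over 1 kb, so that a value of Ifng, the member with the fewest reads, rested on about 32 to 206 reads. Genes with an nRPKM of at least 1 numbered 11763 to 12261 per library. Cd4 lay between 174 and 326 nRPKM in all 18 libraries and the CD8 marker gene Cd8a between 0.008 and 0.433. The other CD8 marker gene listed, Cd8b1, was higher than Cd8a, between 4.35 and 6.52. B cell markers were highest in replicate 3 of every group and reached a summed level of 49.1 nRPKM for 7 genes. Where leaving those 6 libraries out changed a call of a member, both values are given. In such bulk RNA, fewer cells that express a gene and less of its RNA per cell cannot be told apart.

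The promoters of the 4 members that differed between the antibodies at high beads are printed here as RefSeq sequence on GRCm38.p6, from 250 bases before to 50 bases after the annotated start. Capitals mark matches, on either strand, to a T-box word (GGTGTGA), a RUNX word (TGTGGT), a STAT word (TTCNNNGAA), an AP-1 word (TGANTCA) or an NF-kB word (GGG and CC with 5 bases of any kind between them); matches that overlap run together in one block of capitals.
Stat4, first annotated start, promoter, chr1:51986898-51987197 (forward strand): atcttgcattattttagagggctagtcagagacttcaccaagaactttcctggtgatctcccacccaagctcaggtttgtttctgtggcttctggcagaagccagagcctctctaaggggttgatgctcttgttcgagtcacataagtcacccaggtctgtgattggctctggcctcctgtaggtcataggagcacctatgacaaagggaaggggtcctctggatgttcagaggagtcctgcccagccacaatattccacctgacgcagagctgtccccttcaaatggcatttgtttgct
Stat4, second annotated start, promoter, chr1:52007990-52008289 (forward strand): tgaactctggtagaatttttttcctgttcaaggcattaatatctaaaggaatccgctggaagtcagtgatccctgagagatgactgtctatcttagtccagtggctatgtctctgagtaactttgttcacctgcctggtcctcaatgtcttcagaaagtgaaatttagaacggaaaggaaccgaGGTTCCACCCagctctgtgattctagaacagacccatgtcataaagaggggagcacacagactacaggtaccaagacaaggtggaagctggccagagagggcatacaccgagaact
Tbx21 promoter, chr11:97115282-97115581 (reverse strand): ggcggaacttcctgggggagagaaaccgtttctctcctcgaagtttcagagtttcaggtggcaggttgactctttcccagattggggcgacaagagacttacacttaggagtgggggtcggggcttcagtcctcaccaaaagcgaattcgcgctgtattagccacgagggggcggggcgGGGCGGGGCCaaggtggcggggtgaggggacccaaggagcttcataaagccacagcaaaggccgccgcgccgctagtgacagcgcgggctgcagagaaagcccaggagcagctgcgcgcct
Gzmb promoter, chr14:56262285-56262584 (reverse strand): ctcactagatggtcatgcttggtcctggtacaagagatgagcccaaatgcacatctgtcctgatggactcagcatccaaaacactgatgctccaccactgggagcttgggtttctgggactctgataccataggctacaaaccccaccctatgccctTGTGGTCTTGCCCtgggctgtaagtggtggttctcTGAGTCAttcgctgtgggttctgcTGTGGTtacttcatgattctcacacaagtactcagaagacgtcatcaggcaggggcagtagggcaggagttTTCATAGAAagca
Il12rb2 promoter, chr6:67376139-67376438 (reverse strand): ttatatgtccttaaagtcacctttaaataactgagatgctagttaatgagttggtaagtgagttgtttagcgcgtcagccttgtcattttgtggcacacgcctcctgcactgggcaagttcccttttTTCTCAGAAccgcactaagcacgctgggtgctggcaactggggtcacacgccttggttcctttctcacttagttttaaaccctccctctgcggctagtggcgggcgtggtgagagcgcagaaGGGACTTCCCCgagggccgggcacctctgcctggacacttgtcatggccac
The Gzmb window held 2 RUNX words, starting 93 and 34 bases before the start, with an AP-1 word between them 58 bases before the start and a STAT word 38 bases after it. Its NF-kB word overlapped the first RUNX word. Il12rb2 held a STAT word 123 bases before the start and an NF-kB word across the start itself, whereas the Tbx21 window and the second Stat4 window held an NF-kB word alone, and the first Stat4 window held none of these 5. RefSeq windows were matched for 9 of the 10 members, 13 windows in all, since some genes have several annotated starts and windows of one gene can overlap. The RUNX word was present in 4 of these 13 windows, against 16.8% of all 32851 promoter windows. The STAT word was present in 4, against 8.3%, the AP-1 word in 1, against 7.81%, and the NF-kB word in 8, against 50.8%. The T-box word was in 0 of the 13 and in 3.98% of all windows, and the NFAT word GGAAA, which is not capitalised, was in 8 and in 61.3%. These matches describe letters in a short window and do not show that a factor bound there.

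**Figure D1:**
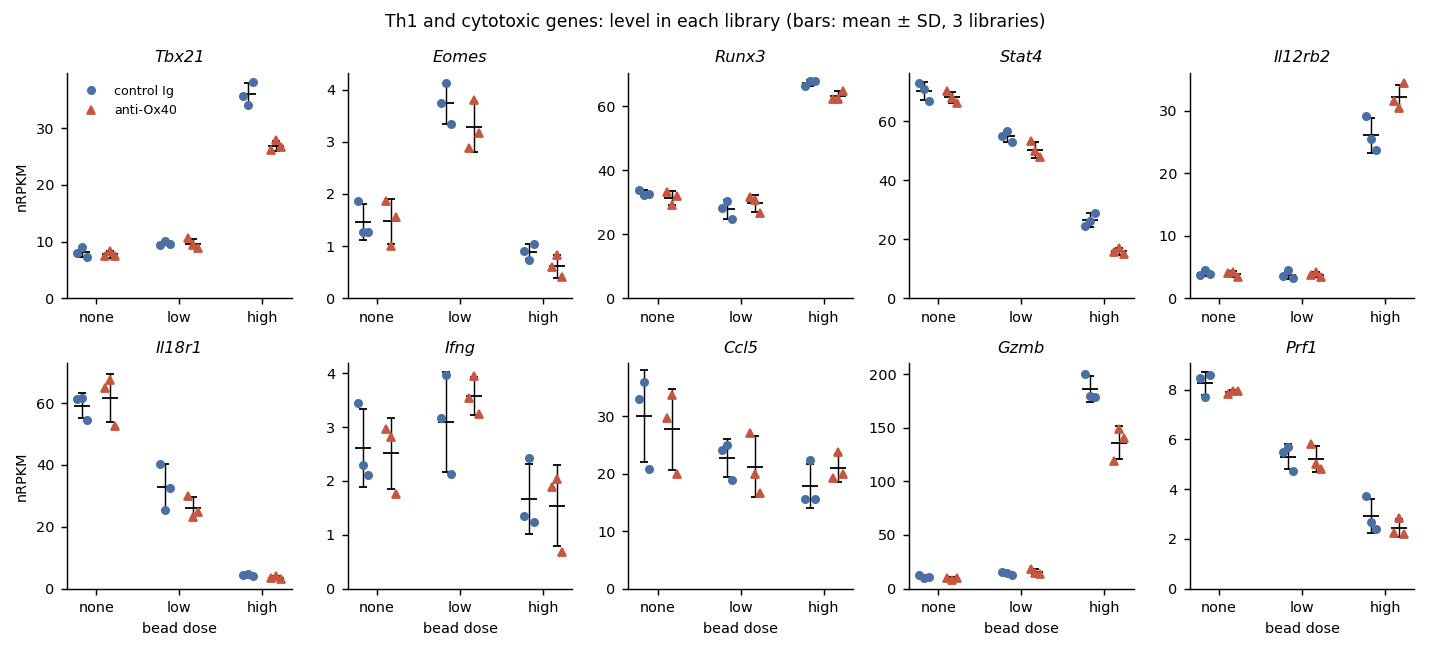
Level of each of the 10 members in every library (points, nRPKM) by bead dose and antibody, with the mean and SD of 3 libraries as bars. Gzmb, Tbx21, Il12rb2 and Runx3 were highest at high beads, Stat4, Prf1 and Il18r1 were highest without beads, and Eomes was highest at low beads.

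The comparison of anti-Ox40 with control Ig at high beads asks what Ox40 signalling adds to strong stimulation of CD3 and CD28. Here the antibody lowered Stat4, Tbx21 and Gzmb and raised Il12rb2, while Ifng, the cytokine downstream of these factors, lay in the same range with both antibodies. By limma, with a call at a Benjamini-Hochberg adjusted p under 0.05, 3 of the 10 members were lower and 1 was higher, among 26% of all tested genes called (11.6% lower and 14.4% higher). The median difference over the members was -0.21, against 0.00428 over all tested genes. With so many genes called in the whole table, the count of members is by itself no result about them, and the values below are what the comparison holds.

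Among the transcription factors, Stat4 (chromosome 1, 51987106 to 52107189) moved most. Its 3 control Ig libraries at high beads were at 24.4, 26.2 and 29.0 nRPKM and the anti-Ox40 libraries at 15.8, 17.2 and 14.9. The groups did not overlap, and the difference was -0.70 on the log2 scale (SE 0.06, adjusted p = 7.08e-06), from a mean of 26.5 ± 2.32 to 16 ± 1.16 (SD, n = 3). Tbx21 (chromosome 11, 97098007 to 97115331), the defining Th1 factor, was at 35.7, 34.1 and 38.2 in control Ig and at 26.1, 27.9 and 26.6 with anti-Ox40. These libraries did not overlap either, with a difference of -0.41 (SE 0.07, adjusted p = 0.000759). Both calls held in 18 of 18 fits that left out a library. Runx3 (chromosome 4, 135120645 to 135177990) was at 66.2, 67.7 and 67.7 in control Ig and at 62.3, 62.3 and 64.8 with anti-Ox40. Although the libraries did not overlap, the difference of -0.09 was not called (adjusted p = 0.389). Eomes (chromosome 9, 118478186 to 118486132) was low with both antibodies, at 0.905, 0.743 and 1.04 against 0.594, 0.835 and 0.405, with overlapping libraries (-0.24, adjusted p = 0.222).

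The cytokine receptor chains did not move together. Il12rb2 (chromosome 6, 67285986 to 67376293), the signalling chain of the IL-12 receptor, was at 29.1, 25.5 and 23.6 nRPKM in control Ig and at 31.5, 30.5 and 34.4 with anti-Ox40. All 3 anti-Ox40 libraries lay above the control libraries, by 0.29 on the log2 scale (SE 0.10, adjusted p = 0.0469). Il12rb2 thus differed in the opposite direction to Stat4, the factor its receptor activates. The call sat close to the threshold and remained in 7 of 18 fits that left out a library and in 4 of 12 other settings. It was missed without high-bead control Ig replicate 2 or 3 or any anti-Ox40 high-bead replicate, without no-bead replicates 1 or 3 of control Ig or 1 or 2 of anti-Ox40, and without replicate 1 of either low-bead group. The adjusted p then lay between 0.0518 and 0.185. In the annotation Il12rb2 overlaps Serbp1, whose level was 50.7 to 158 nRPKM over all libraries. At high beads Serbp1 was at 131, 134 and 129 in control Ig and at 158, 155 and 153 with anti-Ox40. It thus differed in the same direction as Il12rb2, also without overlap. Whether the counting used strand is not given in the sources used here, and a part of Serbp1 reads in the Il12rb2 values was not tested. Il18r1 (chromosome 1, 40465552 to 40500854), a chain of the IL-18 receptor, was at 4.42, 4.55 and 3.97 in control Ig and at 3.32, 3.97 and 2.99 with anti-Ox40. Its difference of -0.27 was not called (adjusted p = 0.178).

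Of the effector genes, only Gzmb (chromosome 14, 56258836 to 56262334) passed the test at high beads. It was at 200.4, 179 and 179 nRPKM in control Ig and at 119, 149 and 140 with anti-Ox40. The groups did not overlap, with a difference of -0.45 (SE 0.12, adjusted p = 0.0121). Without anti-Ox40 high-bead replicate 1, the lowest library, the difference was -0.36 and was no longer called (adjusted p = 0.0738), which left Stat4 and Tbx21 as the called members. Prf1 (chromosome 10, 61297751 to 61304684), the partner of granzyme B in killing, was at 3.70, 2.68 and 2.39 against 2.23, 2.84 and 2.21 (-0.19, adjusted p = 0.217). Ifng (chromosome 10, 118441046 to 118445894) was at 1.34, 2.42 and 1.23 against 1.89, 2.04 and 0.678. Its difference of -0.09 had a 95% confidence interval of -0.59 to 0.41, so that a change of the size seen for Tbx21 was not detectable at this spread (adjusted p = 0.823). Ccl5 (chromosome 11, 83525778 to 83530518) was at 15.7, 22.3 and 15.6 against 19.2, 23.8 and 20.0 (0.24, adjusted p = 0.487). Prf1, Ifng and Ccl5 each had overlapping libraries.

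Counted without any test, the libraries of the 2 antibodies did not overlap for 5 members at high beads, 4 lower and 1 higher, against 43.3% of all tested genes (19.5% lower and 23.8% higher). Without the 6 libraries that were highest in B cell markers, 1 per group, 2 of the 10 members were called at high beads, Stat4 and Tbx21, among 10.6% of all genes. Gzmb then differed by -0.50 (adjusted p = 0.0671) and Il12rb2 by 0.18 (adjusted p = 0.326).

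**Figure D2:**
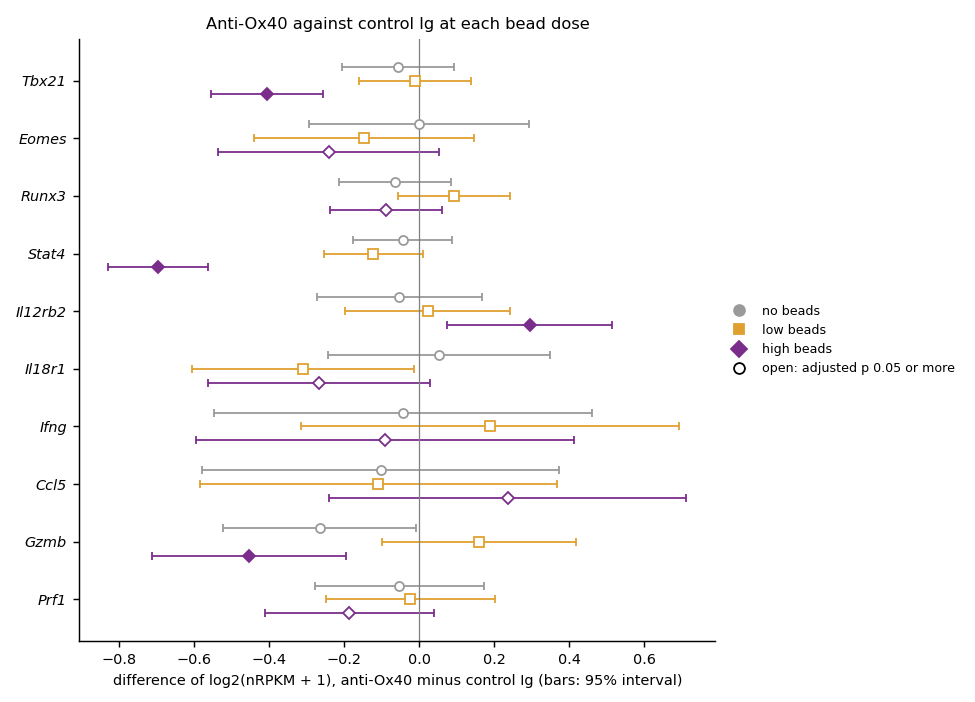
Difference between anti-Ox40 and control Ig in each member at the 3 bead doses, on the log2(nRPKM + 1) scale with 95% confidence intervals; filled symbols passed the adjusted p threshold of 0.05 and open symbols did not. The filled symbols are those of Stat4, Tbx21, Gzmb and Il12rb2 at high beads.

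At the lower bead doses no member was called. Without beads 0 of 10 members differed between the antibodies by limma (0.138% of all tested genes called), and of the 10 the largest difference was that of Gzmb, at 12.6, 9.80 and 11.1 nRPKM in control Ig and 9.65, 7.64 and 10.1 with anti-Ox40 (-0.27, adjusted p = 1). At low beads the count was again 0 of 10, among 9.59% of all tested genes called. The member with the smallest adjusted p there was Il18r1, at 40.3, 25.5 and 32.6 in control Ig and 30.0, 23.1 and 24.7 with anti-Ox40 (-0.31, adjusted p = 0.154). Without control Ig low-bead replicate 2, the lowest control library for this gene, Il18r1 was called (-0.48, adjusted p = 0.0146). Stat4 at low beads was at 55.0, 56.9 and 52.9 against 53.3, 50.0 and 47.8 (-0.12, adjusted p = 0.209), and Tbx21 was at 9.50, 10.1 and 9.54 against 10.6, 9.47 and 8.95 (-0.01, adjusted p = 0.938). In both genes the libraries overlapped. At an unadjusted p under 0.05, 1 member was lower without beads (Gzmb) and 1 at low beads (Il18r1).

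Whether the antibody effect itself differed between doses was tested as an interaction. Stat4 and Tbx21 passed this test and the other 8 members did not, so that for Gzmb and Il12rb2 a different effect at different doses was not established. From no to high beads the effect moved by -0.65 for Stat4 (SE 0.09, adjusted p = 0.00131) and by -0.35 for Tbx21 (SE 0.10, adjusted p = 0.0364), 2 of 10 members, both lower, against 11.1% of all genes (4.7% lower). From low to high beads it moved by -0.57 for Stat4 (adjusted p = 0.00704) and by -0.39 for Tbx21 (adjusted p = 0.0443), against 3.17% of all genes (1.7% lower). Gzmb fell short in this second test (-0.61, adjusted p = 0.0625), and Il12rb2 did so in both (0.35, adjusted p = 0.138, and 0.27, adjusted p = 0.309). Between no and low beads 0 of 10 members differed in antibody effect by limma (0.268% of all genes), and 1, Gzmb, did at an unadjusted p under 0.05.

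The Tbx21 interactions lay close to the threshold, and leaving out a library moved the adjusted p across it more than it moved the difference. That from no to high beads was missed (-0.28 to -0.35, adjusted p 0.0585 to 0.0982) when any of these was left out: no-bead replicates 1 or 3 of control Ig, no-bead replicate 2 of anti-Ox40, high-bead replicate 3 of control Ig and high-bead replicates 1 or 3 of anti-Ox40. That from low to high beads was missed (-0.33 to -0.44, adjusted p 0.0543 to 0.121) without replicate 1 of either no-bead group, low-bead replicates 1 or 3 of control Ig or any of anti-Ox40, or high-bead replicates 2 or 3 of control Ig or 1 or 3 of anti-Ox40. Gzmb passed from low to high beads when control Ig low-bead replicate 2 was left out (-0.63, adjusted p = 0.0494) and with a score of nuclear RNAs as a covariate (-0.62, adjusted p = 0.0406). Without the 6 libraries highest in B cell markers neither gene passed, Stat4 at -0.53 and -0.48 (adjusted p = 0.0652 and 0.177) and Tbx21 at -0.26 and -0.38 (adjusted p = 0.248 and 0.344). That fit had 2 libraries in each group.

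The bead comparisons within each antibody show how the members responded to CD3 and CD28 stimulation, without Ox40 antibody in the control Ig cultures and beside it in the others. The 10 genes split: Gzmb, Il12rb2, Tbx21 and Runx3 rose at high beads, while Il18r1, Stat4 and Prf1 fell. Eomes peaked at low beads. Between high and no beads in control Ig, 4 of the 10 members were higher and 5 lower, among 82.3% of all tested genes called (43.4% higher and 38.9% lower). With anti-Ox40 it was 4 higher and 4 lower, among 84.5% (45.2% and 39.3%). So large a share of the table moved with the beads that these counts alone set the members apart from nothing, and the sizes and directions are given here instead. Comparisons that share the no-bead or low-bead libraries are set side by side and were not tested against each other.

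Gzmb rose most. In control Ig it was at 12.6, 9.80 and 11.1 nRPKM without beads, at 15.2, 14.1 and 12.2 with low beads and at 200.4, 179 and 179 with high beads. The high-bead libraries lay far above the others, with a difference between high and no beads of 3.95 (SE 0.12, adjusted p = 5.34e-14), and of 3.76 with anti-Ox40 (adjusted p = 8.15e-14). The step from no to low beads was small by comparison, at 0.29 in control Ig, where it missed the threshold (adjusted p = 0.0503), and 0.71 with anti-Ox40, where it passed (adjusted p = 7.59e-05). The interaction between these 2 steps was 0.42 and was not called (adjusted p = 0.226).

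Il12rb2 and Runx3 also rose at high beads, and neither rose at low beads. Il12rb2 was at 3.77, 4.58 and 3.86 without beads, 3.56, 4.46 and 3.23 at low beads and 29.1, 25.5 and 23.6 at high beads in control Ig. From low to high beads it rose by 2.51 (SE 0.10, adjusted p = 1.97e-11), and from no to low beads it differed by -0.10 (adjusted p = 0.419). Runx3 in control Ig was at 33.8, 32.2 and 32.6, then at 28.2, 30.4 and 24.7, and at high beads at 66.2, 67.7 and 67.7. It fell by 0.24 at low beads (adjusted p = 0.00727) and rose by 1.25 from low to high beads (adjusted p = 5.14e-10). The small fall was not called without the 6 libraries highest in B cell markers (-0.17, adjusted p = 0.0624). With anti-Ox40 the first step of Runx3 was -0.08 (adjusted p = 0.306) and the second 1.07 (adjusted p = 2.49e-09). Il12rb1, the chain shared by the receptors of IL-12 and IL-23, was unlike Il12rb2 in that it was already higher at low beads, at group means of 6.80, 19.8 and 76.0 over the 3 doses in control Ig.

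Tbx21 in control Ig was at 8.06, 8.97 and 7.29 without beads, 9.50, 10.1 and 9.54 at low beads and 35.7, 34.1 and 38.2 at high beads. It rose by 0.24 at low beads (SE 0.07, adjusted p = 0.00785) and by 1.78 from low to high beads (adjusted p = 1.41e-11), and in the anti-Ox40 cultures by 0.29 (adjusted p = 0.00193) and 1.39 (adjusted p = 1.66e-10). The low-bead step in control Ig was missed without no-bead replicate 3 (0.17, adjusted p = 0.0512) and without the 6 libraries highest in B cell markers (0.19, adjusted p = 0.0787). Stat4 went the other way. In control Ig it fell from 73.1, 70.9 and 67.0 to 55.0, 56.9 and 52.9 at low beads (-0.35, adjusted p = 0.000154) and to 24.4, 26.2 and 29.0 at high beads, which is -1.38 against no beads (SE 0.06, adjusted p = 6.05e-12). With anti-Ox40 the fall from no to high beads was -2.03 (adjusted p = 4.67e-14). The 2 factors of the Th1 programme thus changed in opposite directions with the beads and in the same direction with the antibody.

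Il18r1 and Prf1 fell at each step. Il18r1 in control Ig was at 61.3, 61.7 and 54.5, then at 40.3, 25.5 and 32.6, and at high beads at 4.42, 4.55 and 3.97. Its difference between high and no beads was -3.50 (SE 0.14, adjusted p = 1.21e-12), and -3.82 with anti-Ox40 (adjusted p = 3.33e-13), which made it the member with the largest fall. Il18rap, which encodes the other chain of the IL-18 receptor, had group means of 13.0, 7.47 and 1.31 in control Ig. Prf1 was at 8.45, 7.71 and 8.58, then at 5.49, 5.70 and 4.72, and at high beads at 3.70, 2.68 and 2.39. It fell by 0.55 at the first step and by 0.70 at the second in control Ig (adjusted p = 0.000294 and 2.43e-05), and by 0.53 and 0.86 with anti-Ox40 (adjusted p = 0.000362 and 2.72e-06). Gzmb and Prf1, whose products act together in cytotoxic granules, therefore moved in opposite directions.

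Eomes was highest at low beads. The group means of Ifng were also highest there, but its rise from no to low beads was not called. Eomes in control Ig was at 1.86, 1.26 and 1.26 without beads, 3.74, 4.13 and 3.35 at low beads and 0.905, 0.743 and 1.04 at high beads. It rose by 0.95 (SE 0.14, adjusted p = 2.21e-05) and then fell by 1.32 (adjusted p = 4.54e-07), and in the anti-Ox40 cultures it rose by 0.80 and fell by 1.41. Its fall between high and no beads in control Ig (-0.37, adjusted p = 0.0213) was missed without no-bead replicate 1 (-0.26, adjusted p = 0.116) or high-bead replicate 2 (-0.31, adjusted p = 0.0793). Ifng in control Ig was at 3.44, 2.30 and 2.10, then at 3.17, 3.97 and 2.12, and at high beads at 1.34, 2.42 and 1.23, with libraries of all 3 doses overlapping. From no to low beads Ifng differed by 0.17 (adjusted p = 0.555), and by 0.40 with anti-Ox40 (adjusted p = 0.142). It fell from low to high beads by 0.62 (SE 0.24, adjusted p = 0.0278), and by 0.90 with anti-Ox40 (adjusted p = 0.0031). In control Ig this call was missed without replicate 1 or 2 at low beads or replicate 1 or 3 at high beads (adjusted p 0.068 to 0.119). Ifng was lowest in replicate 3 in 6 of 6 groups, the replicate that was highest in B cell markers. Whether these markers have a part in it was not tested.

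Ccl5 was called in 1 of the 6 bead comparisons, high against no beads in control Ig. It was at 33.1, 36.0 and 20.9 without beads and at 15.7, 22.3 and 15.6 with high beads, with overlapping libraries (-0.70, SE 0.22, adjusted p = 0.00898). At low beads it was at 24.1, 25.1 and 18.9, a difference from no beads of -0.36 that was not called (adjusted p = 0.175). With anti-Ox40 the difference between high and no beads was -0.36 (adjusted p = 0.145). Ccl5 was lowest in replicate 3 in 5 of 6 groups. Without the 6 libraries highest in B cell markers it was also called between low and no beads in control Ig (-0.47, adjusted p = 0.0466) and between high and no beads with anti-Ox40 (-0.54, adjusted p = 0.0163).

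At the smaller steps, low against no beads called 2 members higher and 4 lower in control Ig, where 62.3% of all genes were called (32.6% higher and 29.8% lower). With anti-Ox40 it called 3 higher and 3 lower, where 70.8% were called (37.1% and 33.7%). High against low beads called 4 higher and 5 lower with either antibody. Over all genes this comparison called 72.5% in control Ig (40% higher and 32.5% lower) and 71.5% with anti-Ox40 (40.3% and 31.2%).

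**Figure D3:**
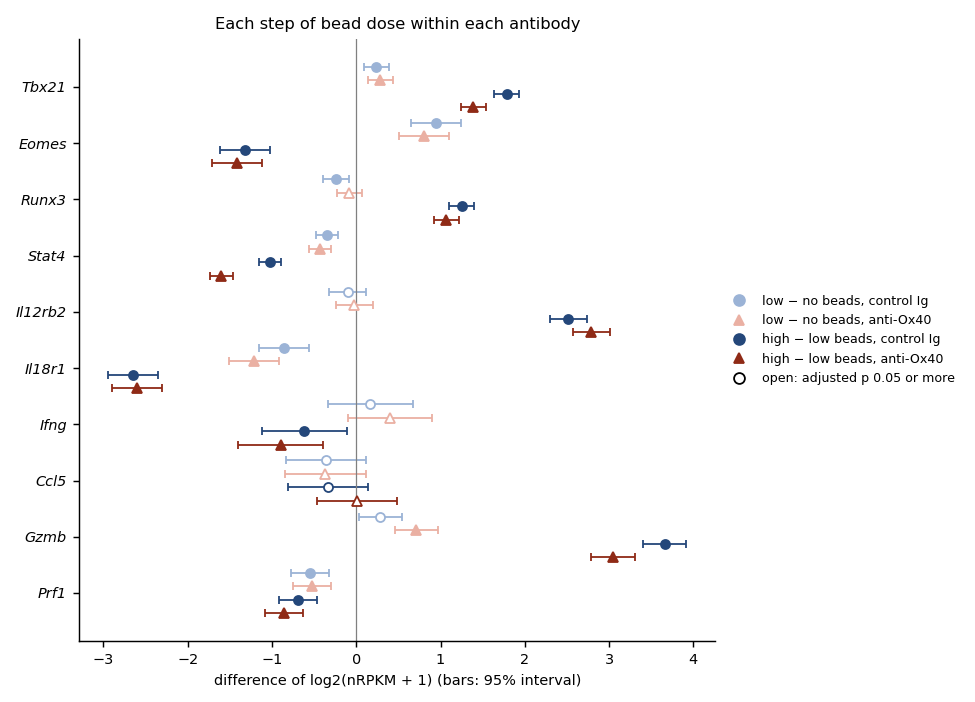
Differences of each member between bead doses, on the log2(nRPKM + 1) scale with 95% confidence intervals, for control Ig and anti-Ox40 cultures; open symbols have an adjusted p of 0.05 or more. The steps shown are low against no beads and high against low beads. Gzmb shows the largest rise, 3.66 between high and low beads in control Ig, and Il18r1 the largest fall, -2.65 in the same comparison.

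Other genes of the pathways were followed through lists that did not include the members. The counts of each list stand beside these shares of all tested genes. The antibody at high beads called 14.4% higher and 11.6% lower. In control Ig, low against no beads called 32.6% higher and 29.8% lower, and high against no beads 43.4% and 38.9%. At high beads the list of genes that interferon gamma induces was the one with the highest share of its tested genes lower with anti-Ox40, 11 of 17, with 1 higher (Cd274, which encodes PD-L1) and a median of -0.35. The guanylate-binding and immunity-related GTPase genes were among them. Those with the smallest adjusted p were Tap1, a peptide transporter of antigen presentation (-0.36), the GTPase genes Iigp1 (-1.08) and Irgm1 (-0.48), and Nlrc5, an activator of MHC class I genes (-0.53). Iigp1 went from 29.8 ± 2.34 nRPKM in control Ig to 13.6 ± 2.14 with anti-Ox40 (SD, n = 3, adjusted p = 0.000322). From no to high beads the antibody effect itself moved down for 9 of the 17, against 4.7% of all tested genes. These genes respond to interferons of other types as well, and Ifng itself was not called.

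In control Ig the beads moved the same list upwards, 16 of 17 higher at low against no beads and 12 higher and 1 lower at high against no beads, among them Gbp2 (3.40), Igtp (1.91) and Psmb9 (1.28). Gbp2 had group means of 26.9, 143 and 294 over the 3 doses, while Ifng was at 2.62, 3.09 and 1.66. Gbp2 does not stand for the whole list. High against low beads called 5 of the 17 higher and 7 lower (median -0.11), against 40% and 32.5% of all tested genes. Iigp1 and Nlrc5, named above, were highest at low beads, with group means of 12.1, 50.4 and 29.8 and of 33.7, 64.4 and 36.3.

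Among 20 tested genes of the wider Th1 network (of 22 listed), 4 were higher and 6 lower with anti-Ox40 at high beads, with a median of -0.05. Lta, which encodes lymphotoxin alpha, rose by 1.08 (adjusted p = 0.000101), from 63.8 ± 11.2 to 137 ± 30.2, and Bhlhe40, a transcription factor needed for Th1 cytokine production, by 0.46 (adjusted p = 9.11e-05). Ifngr1, a chain of the interferon gamma receptor, fell by 0.45 and the kinase gene Jak1 by 0.26. Of those picked after their values were seen, Il2 rose by 0.86, from 0.463 ± 0.118 to 1.78 ± 0.986, and Cxcr3, the chemokine receptor of Th1 cells, fell by 0.83, from 32.8 ± 0.705 to 18.1 ± 0.774. At low beads Bhlhe40 (1.02) and Lta (0.57) were the 2 called genes of these 20, both higher. In that comparison 9.59% of all tested genes were called, so the count by itself is no result about the list.

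Of 23 tested granule and killing genes (of 27 listed), 1 was higher and 4 lower with anti-Ox40 at high beads, with a median of -0.09. The death ligand gene Tnfsf10 (-0.37), the protease gene Ctsw (-0.64), and the granule release genes Rab27a (-0.23) and Stxbp2 (-0.14) were lower. Serpinb6b, a protease inhibitor picked after its value was seen, was higher (0.24). High against no beads in control Ig called 12 of the 23 higher and 7 lower, where 43.4% and 38.9% of all tested genes were called. Cst7 (3.02), Serpinb6b (1.37) and the granule proteoglycan gene Srgn (1.03) were higher and the chemokine gene Xcl1 was lower (-2.58).

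Genes of other CD4 T cell fates moved with the antibody too. At high beads 4 of 10 were lower, including the follicular helper factor Bcl6 (-0.63), Zbtb7b, which sets CD4 lineage choice (-0.29), and Bach2 (-0.28). CD4 T cell marker genes were lower in 5 of 8 cases and higher in 0, with Cd3g at -0.47, Cd3d at -0.40, Cd3e at -0.35 and Cd28 at -0.25. The summed level of these 8 markers was 1725 to 1913 nRPKM in control Ig and with anti-Ox40 1459 to 1594, both at high beads. Their part in the lower levels of Stat4, Tbx21 and Gzmb was not tested.

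**Figure D4:**
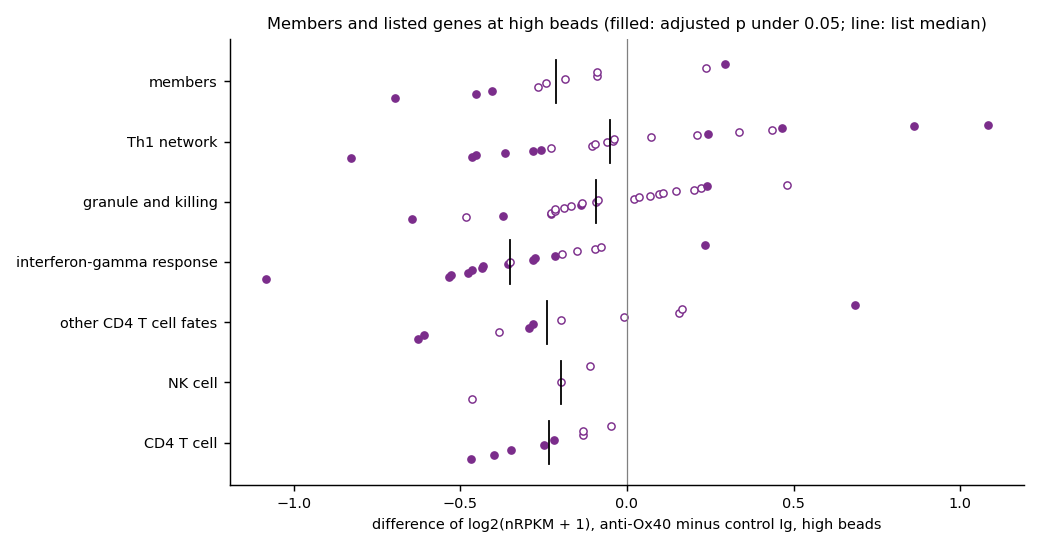
Differences between anti-Ox40 and control Ig at high beads for the members and for the genes of each list, on the log2(nRPKM + 1) scale; filled points passed the adjusted p threshold of 0.05 and the vertical line is the list's median. The interferon gamma response genes lie mostly to the left of 0, with a median of -0.35.

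NK cells also express Prf1, Ccl5, Eomes, Ifng and Gzmb, and their markers moved with the beads. The summed level of 10 NK marker genes was 36.0 to 47.0 nRPKM in control Ig without beads, 10.4 to 15.9 at low beads and, at high beads, 4.16 to 6.63. With anti-Ox40 it was 34.0 to 51.3, 8.89 to 14.1 and 2.69 to 5.43. All 3 of these genes that could be tested (Klrd1, Klrb1c and Klrk1) fell between high and no beads in control Ig, the last 2 by 1.74 and 1.40 on the log2 scale. Klrd1 had group means of 30.1, 7.21 and 2.94 and Ncr1, a receptor largely restricted to NK cells, of 1.12, 0.524 and 0.248. No marker was listed at 0 in all libraries of a group, and between 6 and 9 of the 10 had a group mean under 1. Prf1, Ccl5 and Il18r1 fell over the same doses, whereas Gzmb rose and Eomes peaked at low beads. At high beads 0 of the 3 tested NK genes were called between the antibodies, with Klrd1 at -0.46 (adjusted p = 0.064). The part of NK cells in the levels of the members was not tested.

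With the mean log2 level of the NK markers as a covariate, Ccl5 changed direction between high and no beads in control Ig, from -0.70 to 0.89 (adjusted p = 0.0233). The falls of Prf1 at low beads (-0.35, adjusted p = 0.0764, in control Ig and -0.31, adjusted p = 0.123, with anti-Ox40) and of Ifng from low to high beads (-0.02, adjusted p = 0.952, and -0.31, adjusted p = 0.317) were then not called. The same held for Eomes between high and no beads (-0.33, adjusted p = 0.417, and -0.57, adjusted p = 0.169) and for Runx3 between low and no beads in control Ig (-0.16, adjusted p = 0.24). Ifng was then called higher at low than at no beads, by 0.88 in control Ig (adjusted p = 0.0228) and 1.17 with anti-Ox40 (adjusted p = 0.00474). The covariate cannot be told apart from bead dose, because the score lay at 1.14 to 1.51 without beads, 0.66 to 0.99 at low beads and, at high beads, 0.30 to 0.59. The 4 antibody calls at high beads were unaffected by it. Summed levels of Cd8a and Cd8b1 lay between 4.36 and 6.95 in all 18 libraries, with most of each sum from Cd8b1. Klrd1 and Klrb1c were, as Ifng was, lowest in replicate 3 in 6 of 6 groups.

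Markers of myeloid cells and platelets moved with the beads as well. The summed level of 10 myeloid genes was 353 to 382 nRPKM without beads, 118 to 129 at low beads and, at high beads, 42.0 to 50.5 in control Ig, with 10 of 10 lower between high and no beads. The 4 platelet genes summed to 54.0 to 74.3, 37.2 to 45.3 and 9.34 to 12.6, with 4 of 4 lower. At high beads the platelet sum was 6.24 to 6.64 with anti-Ox40, below every control Ig library, and Pf4 was lower (-0.79, adjusted p = 0.000962). The myeloid sum there was 36.7 to 42.1, with 1 of 10 genes lower. The mean log2 level of 3 nuclear RNAs (Malat1 among them) was also lower at high beads. It was 5.27 to 5.79 without beads and 4.82 to 5.59 at low beads, and at high beads it separated the antibodies, at 4.21 to 4.42 in control Ig against 3.92 to 4.03. With this score as a covariate, Ccl5 was not called between high and no beads in control Ig (-0.54, adjusted p = 0.372). Neither was Ifng between high and low beads (-0.92, adjusted p = 0.158, in control Ig and -1.20, adjusted p = 0.0704, with anti-Ox40). The SE of each Ifng difference was then 0.49, against 0.24 without the score. Like the NK score, this score cannot be told apart from high beads, where it lay below every library of the other doses. Stat4, Tbx21 and Gzmb at high beads kept their calls. The part of these cell types and RNAs in the members' levels was not tested.

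**Figure D5:**
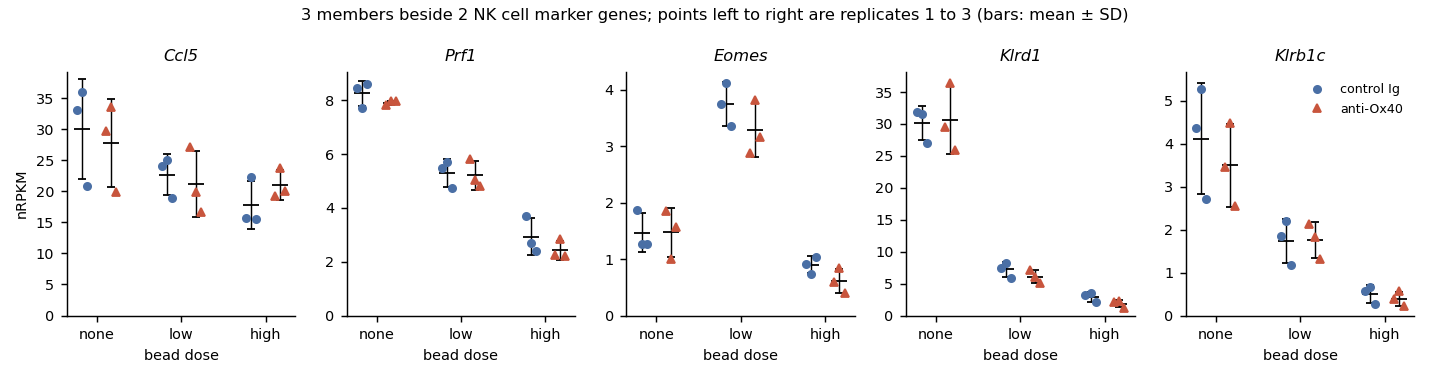
Levels (nRPKM) of Ccl5, Prf1 and Eomes beside the NK cell markers Klrd1 and Klrb1c in every library by bead dose and antibody, with the mean and SD of 3 libraries; points within a group run from replicate 1 to replicate 3. Klrd1 falls from a mean of 30.1 to 2.94 over the doses in control Ig, and replicate 3 is the lowest Klrd1 library in each group.

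The members fell into sets by their levels over the 18 libraries. Gzmb and Tbx21 followed each other closely (Pearson r 0.99 on the log2 scale), as did Il12rb2 and Runx3 (0.98), and Stat4, Prf1 and Il18r1 (0.94 to 0.97). These values mostly reflect the 3 bead doses that all libraries share and are a description without a test. Of the other tested genes, Tg was the most like both Gzmb (r = 0.996) and Tbx21 (r = 0.994). Tg overlaps Sla, an adaptor gene expressed in T cells at 32.0 to 50.8 nRPKM here, and was itself at 0.107 to 16.4. Stat4 was most like Fam189b (0.995), Il12rb2 like Ppp1r3b (0.992), Il18r1 like Smarca2 (0.996), Runx3 like Chmp4b (0.986), Prf1 like Cstf2t (0.984) and Eomes like Sh3bp5 (0.959). Ifng had a looser closest match, Nmi (0.824), an interferon-inducible gene. The 3 genes most like Ccl5 were all of the Ly49 receptor family of NK cells, Klra22 (0.867), Klra15 (0.830) and Klra1 (0.829). Members of that family are near-identical copies between which reads may have been split, and their levels here reached at most 2.61 nRPKM.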

How the data were processed

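RNA sequencing gave 18 libraries of cultured splenic CD4 T cells. The authors deposited 1 table of nRPKM values, that is, RPKM values (reads scaled to gene length and library size) normalized once more, going by the unit's name. Per the submitters' processing notes, reads were aligned with GSNAP to GRCm38. Neither annotation nor counting nor scaling is given in the sources used here. Reads behind a value were estimated from microRNA values, of which 100% were whole multiples of 1 read within 0.1, and from exon lengths of another annotation, so they are approximate and cover counting error only.

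The 13075 genes that reached an nRPKM of 1 in 3 or more libraries were kept. Values were taken to log2(nRPKM + 1), so the pseudocount was 1. limma 3.58.1 (R 4.3.3) fitted a mean per group over the 18 libraries together, using eBayes with a trend and 12 residual degrees of freedom. P-values were 2-sided and adjusted by Benjamini-Hochberg over all tested genes, with a call under 0.05. The contrasts were antibody at each dose, doses within each antibody, and the difference of the antibody effect between doses. The script was tested on simulated data.

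The members, the gene lists and the alternatives were chosen with earlier results of these data known. Named genes are the members, up to 4 genes per list with the smallest adjusted p, cell type markers, and the 3 tested genes with the highest Pearson r to a member, passing over predicted and small RNA genes. Genes picked otherwise are named as such, and the results of some genes that the rule names are not given. Alternatives were other pseudocounts, filters, scalings, fits, covariates, a replicate block and leaving out each library. Leaving out the libraries highest in B cell markers was added after seeing the data. Coordinates and promoters are from RefSeq on GRCm38.p6.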

Additional observations from a re-analysis of the deposited data

Results flagged for a closer look

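For 2 members the effect of anti-Ox40 was called as different between bead doses by the interaction test. The change of the antibody effect from no to high beads was -0.35 for Tbx21 (adjusted p = 0.0364) and -0.65 for Stat4 (adjusted p = 0.00131). From low to high beads it was -0.39 for Tbx21 (adjusted p = 0.0443) and -0.57 for Stat4 (adjusted p = 0.00704). In all 4 cases the antibody lowered the gene at high beads and was not called to change it at the lower dose. Both comparisons share the high-bead libraries.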

How the results depend on the processing

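With each library left out in turn, the number of called members between the antibodies was 0 to 0 without beads, 0 to 1 at low beads and, at high beads, 2 to 4. It was 6 to 7 for low against no beads, 8 to 9 for high against low and 8 to 10 for high against no beads, all in control Ig, and 6 to 7, 9 to 9 and 8 to 10 with anti-Ox40. For the differences of the antibody effect it was 0 to 0 from no to low beads, 1 to 2 from no to high and 1 to 3 from low to high beads. Over all tested genes the number called between the antibodies was 0 to 30 without beads (at most 0.229%). It was 131 to 3522 at low beads (1% to 26.9%) and 2065 to 3880 at high beads (15.8% to 29.7%). The bead comparisons, in the order above, called 57.3% to 62.3%, 67.7% to 72.8% and 80.1% to 83.1% of all genes in control Ig. With anti-Ox40 they called 66.3% to 72.1%, 66.7% to 73.2% and 82.6% to 85.1%. The differences of the antibody effect were called for 0.145% to 14.3% from no to low beads and 4.6% to 15.2% from no to high. From low to high beads it was 102 to 1243 genes (0.78% to 9.51%). Leaving out control Ig low-bead replicate 2 gave the 3522.

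Without the 6 libraries highest in B cell markers, 2 members were called at high beads, and 0 for either difference of the antibody effect that involves high beads, with 12 libraries in the fit. The bead comparisons (low against no, high against low, high against no) then called 5, 9 and 9 members in control Ig and 6, 9 and 9 with anti-Ox40. With all 18 libraries they called 62.3%, 72.5% and 82.3% of all genes in control Ig and 70.8%, 71.5% and 84.5% with anti-Ox40. Except for the antibodies at high beads, shares of all genes in the 12-library fit and in the settings below are not given here. These counts are by themselves no result about the members. For the difference from no to high beads 1 member, Stat4, was called with no filter and 1 with the nuclear RNA score as a covariate. From low to high beads 1 was called with pseudocounts of 0.1 and 0.5, no filter, no trend or only the groups compared in the fit, and 3 with the replicate block or the nuclear RNA score. The cause of these changes was not tested.

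With the NK marker score as a covariate, Ccl5 turned to 0.89 (high against no beads, control Ig), 0.57 (low against no beads, anti-Ox40) and 1.28 (high against no beads, anti-Ox40). Stat4 and Tbx21 at high beads were called in 12 of 12 other settings and Gzmb in 11 of 12, while Il12rb2 was called in 4 of 12. Over members, comparisons and settings, 3485 values kept direction and side of the threshold, 71 lost the call, 41 gained it and 3 turned.

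The labels give no replicate numbers, so the numbers only name libraries in accession order. With the number as a replicate block, Gzmb passed the test of a different antibody effect between low and high beads (-0.61, adjusted p = 0.0463), and Ifng, Ccl5 and Gzmb gained calls between doses. For a check, the group mean of each gene was subtracted and these deviations were correlated between libraries of different groups. Each of the 18 libraries then correlated best with one of its own number. The r of libraries with the same number lay between -0.158 and 0.354, which is a hint from the data and not the design.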
